A study of Homo sapiens with 6 samples.

Results

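The human ATG8 family consists of the LC3 genes MAP1LC3A, MAP1LC3B, MAP1LC3B2 and MAP1LC3C and the GABARAP genes GABARAP, GABARAPL1 and GABARAPL2. Together with SQSTM1, the gene of the autophagy receptor p62, these are 8 of the 61806 genes measured by RNA-seq in HCT116, a human colorectal carcinoma cell line. The members were chosen by gene symbol, and the set was put forward with the counts and FPKM values of the comparison described here already known. The differences of these 8 genes between groups are therefore given as descriptions, with errors and without p-values. All 6 libraries came from HCT116 cells grown in McCoy's 5A medium with fetal bovine serum and antibiotics. The labels call 3 libraries si-NC, with a wildtype genotype, and the other 3 si-STRIP2, with a STRIP2 knockdown genotype. The prefix si stands for a short interfering RNA. Its sequence, its dose and the time of harvest are not given in the sources used here, nor is whether more than 1 duplex was used, so effects of the duplex and of losing STRIP2 cannot be told apart.

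ATG8 proteins are small ubiquitin-like proteins. ATG4 proteases trim their tail to expose a glycine, and ATG7, ATG3 and the ATG12, ATG5 and ATG16L1 complex then join that glycine to a lipid of the autophagosome membrane. The lipid-bound proteins recruit receptors that carry a short LC3-interacting motif, and p62 is such a receptor, which gathers ubiquitin-tagged cargo and is itself degraded in the lysosome. p62 also binds KEAP1, the repressor of the transcription factor NRF2.

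The total count was between 17184963 and 21721218 per library, and the targeted gene STRIP2 was lower in every si-STRIP2 library than in every si-NC library, at 72.6% of the control level (edgeR log2 fold change -0.46, SE 0.083, adjusted p = 1.62e-05). FPKM, the scale used for levels below, is fragments scaled to exon length and sequencing depth. Of 9 colorectal epithelial markers, 6 reached 1 FPKM in at least 1 library, EPCAM, KRT8, KRT18, KRT19 and CDH1 among them, while CDX1 was at 0 throughout and VIL1 did not pass 0.03 FPKM. The summed level of these 9 markers was 691 to 721 FPKM in si-NC and 668 to 691 FPKM in si-STRIP2. Of 16 markers of fibroblasts, leukocytes and endothelium, only COL1A1 reached 1 FPKM. Mitochondrial genes took 4.88% to 8.88% of counts in si-NC and 5.73% to 6.30% in si-STRIP2, and the part of this spread in the results was not tested. Bulk RNA does not tell fewer cells of a kind from less RNA per cell. Whether replicate libraries came from separate cultures is not stated in the labels, so errors and p-values measure only the spread between these libraries, which may be technical.

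MAP1LC3B and MAP1LC3B2 are near-identical, which bears on how their reads can be told apart, so their coding sequences are shown first. MAP1LC3B2 is a copy of MAP1LC3B on another chromosome whose coding region lies in a single exon. In GENCODE 29 on GRCh38, the coding region of MAP1LC3B (a transcript of 2688 bases in 4 exons) runs from 87392428 to 87403097 on chromosome 16, plus strand. That of MAP1LC3B2 (a transcript of 660 bases) runs from 116575943 to 116576320 on chromosome 12, plus strand. Each is 378 bases long with the stop codon, and 376 of these bases are the same. The differences are C30G and A338G, with the MAP1LC3B base first and positions counted from 1 at the A of the start codon. The longest stretch that the transcripts share without a difference is 307 bases. Positions 1 to 120 and 259 to 378 are printed 5′ to 3′, with the differing base in capitals.
MAP1LC3B, positions 1 to 120: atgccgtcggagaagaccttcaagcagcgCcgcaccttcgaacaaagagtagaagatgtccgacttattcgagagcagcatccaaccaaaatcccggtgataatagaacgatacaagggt
MAP1LC3B2, positions 1 to 120: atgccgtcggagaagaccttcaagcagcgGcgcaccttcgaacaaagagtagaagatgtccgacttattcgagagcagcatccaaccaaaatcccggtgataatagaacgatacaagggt
MAP1LC3B, positions 259 to 378: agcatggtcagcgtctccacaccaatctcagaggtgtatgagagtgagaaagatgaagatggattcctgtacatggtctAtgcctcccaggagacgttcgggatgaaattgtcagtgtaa
MAP1LC3B2, positions 259 to 378: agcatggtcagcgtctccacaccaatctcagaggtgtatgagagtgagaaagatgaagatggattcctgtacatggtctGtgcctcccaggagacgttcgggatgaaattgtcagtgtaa
The transcript of MAP1LC3B adds 1682 bases after the coding region and that of MAP1LC3B2 adds 128, so most of the sequence by which MAP1LC3B can be recognised lies outside the part shown. The coding regions of the GABARAP genes are more distant. MAP1LC3B shares 50.7% of aligned coding bases with GABARAP, 51.2% with GABARAPL1 and 55.7% with GABARAPL2, and GABARAP shares 76.8% with GABARAPL1.

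MAP1LC3B was the most abundant member in each group, by far in si-NC, and had the largest difference between groups. Its gene (ENSG00000140941) spans 87383953 to 87404779 on chromosome 16, plus strand, in the deposited table. Its level was 117.16, 119.21 and 114.28 FPKM in the si-NC libraries and 44.34, 42.23 and 42.89 FPKM in the si-STRIP2 libraries. The groups lay far apart, and the 3 libraries of each group were close together. The mean was 116.9 ± 2.48 FPKM in si-NC and 43.2 ± 1.08 FPKM with si-STRIP2 (SD, n = 3), which is 36.9% of the control level. The counts behind these levels were 12818, 10394 and 9892 in si-NC and 4194, 3719 and 3721 in si-STRIP2. The log2 fold change came to -1.44 (SE, standard error, 0.041), or 2.71-fold lower. MAP1LC3B stood at rank 253 of the 15687 tested genes by mean FPKM in si-NC and at rank 865 in si-STRIP2. Among the called genes at any level, the log2 fold change of 171 lay below that of MAP1LC3B. Of the 786 tested genes that averaged 50 FPKM or more in a group, 1 had a lower log2 fold change, AREG, the gene of the EGF receptor ligand amphiregulin (log2 fold change -1.54). MAP1LC3B reached 50 FPKM only in si-NC, and it was put forward with this contrast known. Its place among these genes is therefore a description and no test.

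**Figure D1:**
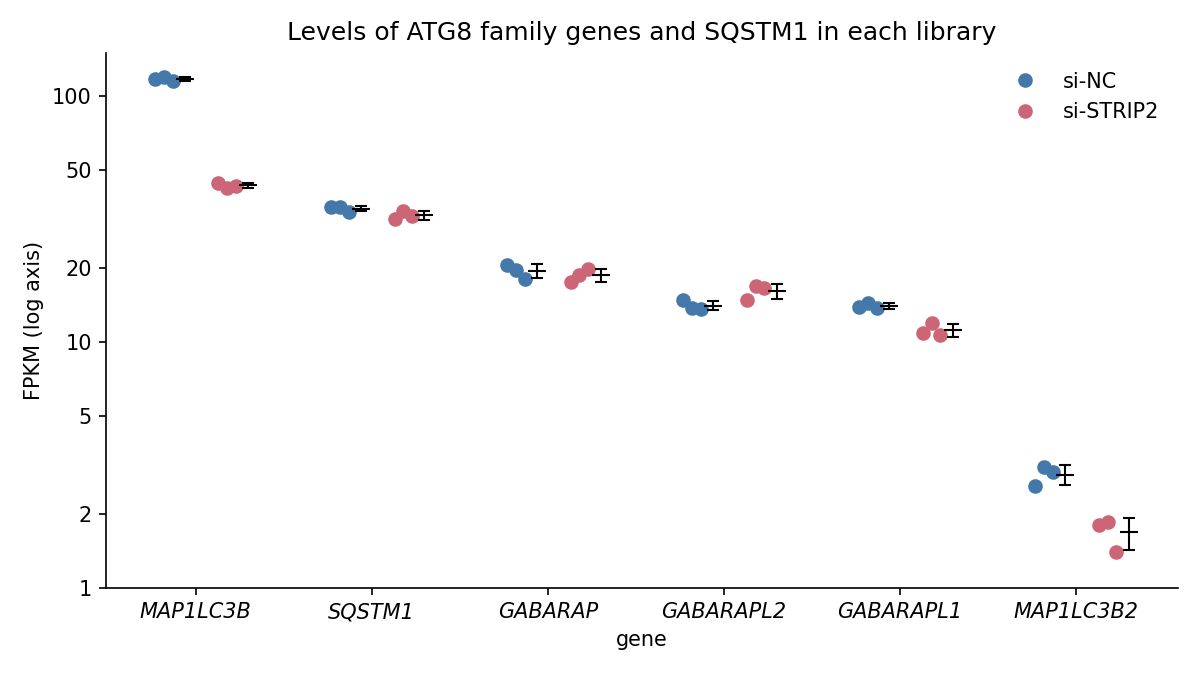
FPKM (log axis) of the 6 tested members in each library, ordered by mean level in si-NC, with blue points for si-NC, red points for si-STRIP2 and black bars for the mean and SD of 3 libraries. MAP1LC3B drops from 114.28 or more to 44.34 or less, while SQSTM1 and GABARAP overlap between groups.

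The copy MAP1LC3B2 (ENSG00000258102, chromosome 12, 116548105 to 116576606, plus strand) was expressed at a much lower level. It had 2.58, 3.09 and 2.96 FPKM in si-NC and 1.80, 1.84 and 1.39 FPKM in si-STRIP2. The groups did not overlap. The log2 fold change came to -0.77 (SE 0.155), on 108, 103 and 98 counts in si-NC and 65, 62 and 46 counts in si-STRIP2. Over all libraries MAP1LC3B2 held 1.08% as many counts as MAP1LC3B. How reads that match both copies were counted is not given in the sources used here, so the value of MAP1LC3B2 is uncertain. With the counts of MAP1LC3B2 and of the pseudogene MAP1LC3BP1 added to MAP1LC3B, the log2 fold change of MAP1LC3B was -1.43.

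The other LC3 genes were at or near 0. MAP1LC3A (ENSG00000101460, chromosome 20, 34546854 to 34560345, plus strand) had 1 count in the 3 si-NC libraries together and 0 in the 3 si-STRIP2 libraries. MAP1LC3C (ENSG00000197769, chromosome 1, 241995490 to 241999098, minus strand), the LC3 form that binds the receptor NDP52, had 4, 4 and 1 counts in si-NC and 0 in each si-STRIP2 library. The exact 95% Poisson interval of the summed MAP1LC3C counts ran from 4.12 to 17.1 for si-NC and from 0 to 3.69 for si-STRIP2, for counting error only. A count of 0 allows up to 3 counts, and neither gene passed the filter on low counts, so no fold change is given. With no filter on low counts, edgeR called MAP1LC3C lower and did not call MAP1LC3A, and 5 of 8 members were called. The same fit called 8365 of all 32799 genes it tested. As the set was put forward with this contrast known, nothing is read from that count.

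The GABARAP genes did not share the size of the MAP1LC3B difference. GABARAP (ENSG00000170296, chromosome 17, 7240008 to 7242449, minus strand), first described as a partner of the GABA(A) receptor, had 20.48, 19.63 and 17.99 FPKM in si-NC and 17.52, 18.68 and 19.82 FPKM in si-STRIP2. The groups overlapped, and the log2 fold change came to -0.061 (SE 0.063). GABARAPL1 (ENSG00000139112, chromosome 12, 10212458 to 10223128, plus strand), the closest relative of GABARAP by sequence, had 13.87, 14.34 and 13.68 FPKM in si-NC and 10.84, 11.87 and 10.60 FPKM in si-STRIP2. All 3 si-STRIP2 values were under the lowest si-NC value. Its log2 fold change came to -0.33 (SE 0.052), so that 79.5% of the control level remained. GABARAPL2 (ENSG00000034713, chromosome 16, 75566375 to 75577881, plus strand), also known as GATE-16, had 14.70, 13.74 and 13.61 FPKM in si-NC and 14.79, 16.87 and 16.45 FPKM in si-STRIP2. The highest si-NC library and the lowest si-STRIP2 library almost met, at 14.70 and 14.79 FPKM. The log2 fold change of GABARAPL2 was 0.19 (SE 0.058), the only one above 0 among the tested members.

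SQSTM1 (ENSG00000161011, chromosome 5, 179806398 to 179838078, plus strand) differed little between groups. Its level was 35.24, 35.21 and 33.72 FPKM in si-NC and 31.39, 33.92 and 32.53 FPKM in si-STRIP2. The groups overlapped in the range from 33.72 to 33.92 FPKM. The log2 fold change came to -0.094 (SE 0.041), and the mean in si-STRIP2 was 93.9% of that in si-NC. The ratio of MAP1LC3B to SQSTM1, each in FPKM, went from 3.37 ± 0.036 in si-NC to 1.33 ± 0.084 with si-STRIP2 (SD, n = 3). The genes MRNIP and MGAT4B overlap SQSTM1 on the opposite strand over 2946 and 555 bases and held 8.32% and 27.9% as many counts. FBXO31 overlaps MAP1LC3B on the opposite strand over 8190 bases and held 7.89% as many counts. The library kit keeps strand, but the sources used here do not give the strand setting of the counting.

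Of the 8 members, 6 passed the filter on low counts, and 4 of these passed 0.05 in the Benjamini-Hochberg adjusted edgeR test and are termed called, where 54.8% of all tested genes were called. The called members were MAP1LC3B, MAP1LC3B2 and GABARAPL1, which were lower, and GABARAPL2, which was higher. Among all tested genes, 27.0% were called lower and 27.8% higher. The share of members called is near that background, and since the set was put forward with this contrast known, nothing is read from it. The median log2 fold change was -0.21 over the 6 tested members and 0.014 over all tested genes. GABARAPL2 was not called without si-STRIP2 replicate 2, where its log2 fold change was 0.15. SQSTM1 was called under 5 of 15 alternatives (DESeq2, its size factors in edgeR, quantile scaling, and leaving out si-NC replicate 3 or si-STRIP2 replicate 2), with log2 fold changes from -0.12 to -0.058 over all 15.

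**Figure D2:**
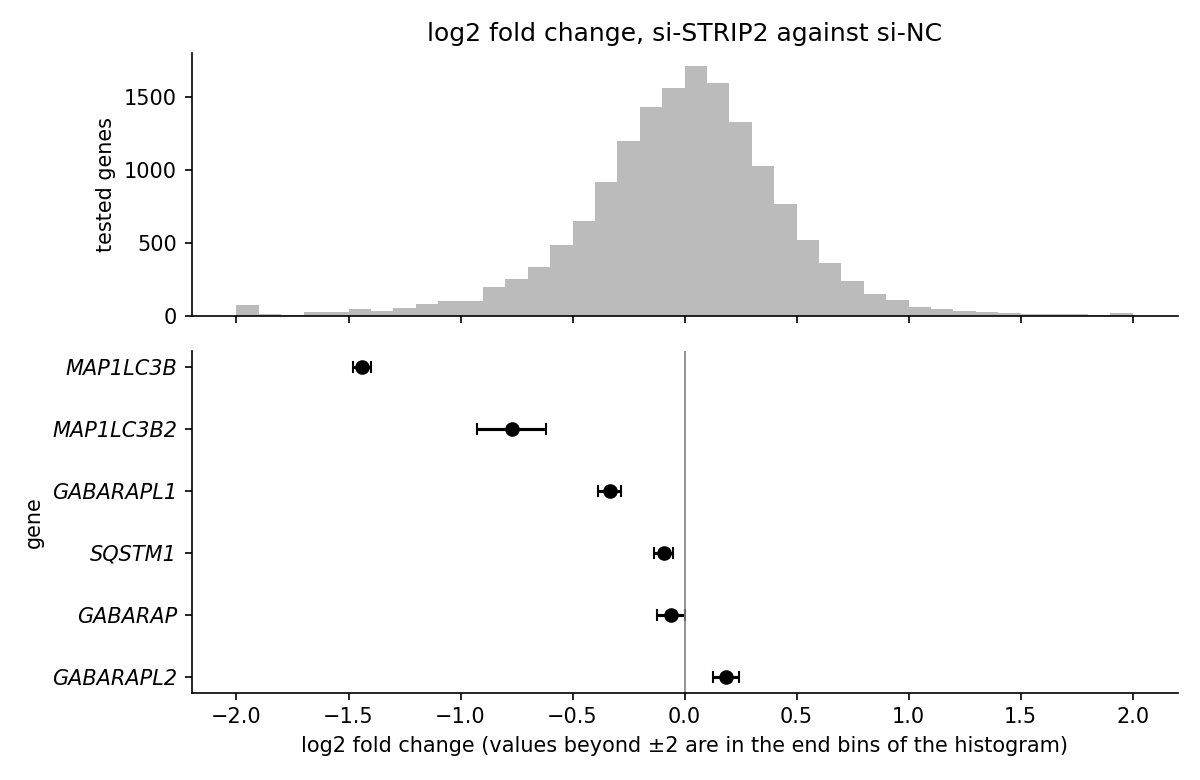
Upper panel: histogram of the log2 fold change of all 15687 tested genes, in bins of equal width. Lower panel: log2 fold change of each tested member, with bars of 1 standard error. MAP1LC3B, at -1.44, lies in the thin left tail, and SQSTM1 and GABARAP lie beside 0.

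Because the levels are per length, the members can be added up. The summed level of the 7 ATG8 genes was 168.9, 170.2 and 162.6 FPKM in si-NC and 89.3, 91.5 and 91.2 FPKM in si-STRIP2. The mean went from 167.3 ± 4.11 to 90.6 ± 1.18 FPKM (SD, n = 3), to 54.2% of the control level. The LC3 genes accounted for 75.1 FPKM of the 76.7 FPKM by which the mean sum was lower. The 3 GABARAP genes together were at 47.4 ± 1.91 FPKM in si-NC and 45.8 ± 2.32 FPKM in si-STRIP2, groups that overlapped. MAP1LC3B made up 69.35%, 70.02% and 70.30% of the sum in the si-NC libraries and 49.66%, 46.16% and 47.05% in the si-STRIP2 libraries. No library of either group came near the other group. On average MAP1LC3B made up 69.9% ± 0.487 of the summed ATG8 level in si-NC and 47.6% ± 1.82 with si-STRIP2 (SD, n = 3). The 3 GABARAP genes had a share of 28.3% ± 0.638 in si-NC and 50.5% ± 1.92 in si-STRIP2. The LC3 sum was 2.44, 2.57 and 2.59 times the GABARAP sum in si-NC and 1.07, 0.929 and 0.945 times in si-STRIP2. In 2 of the 3 si-STRIP2 libraries the GABARAP sum was the larger, and in no si-NC library. On average the LC3 sum was 2.53 times the GABARAP sum in si-NC and 0.981 times in si-STRIP2. By the deposited exonic sizes, the transcripts of these branches thus stood at nearly equal levels after the siRNA against STRIP2. That near equality depends on the length used. In si-STRIP2, MAP1LC3B alone made up 62.05% of the summed ATG8 counts, and 45.1% of the sum with 1 transcript length per gene.

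**Figure D3:**
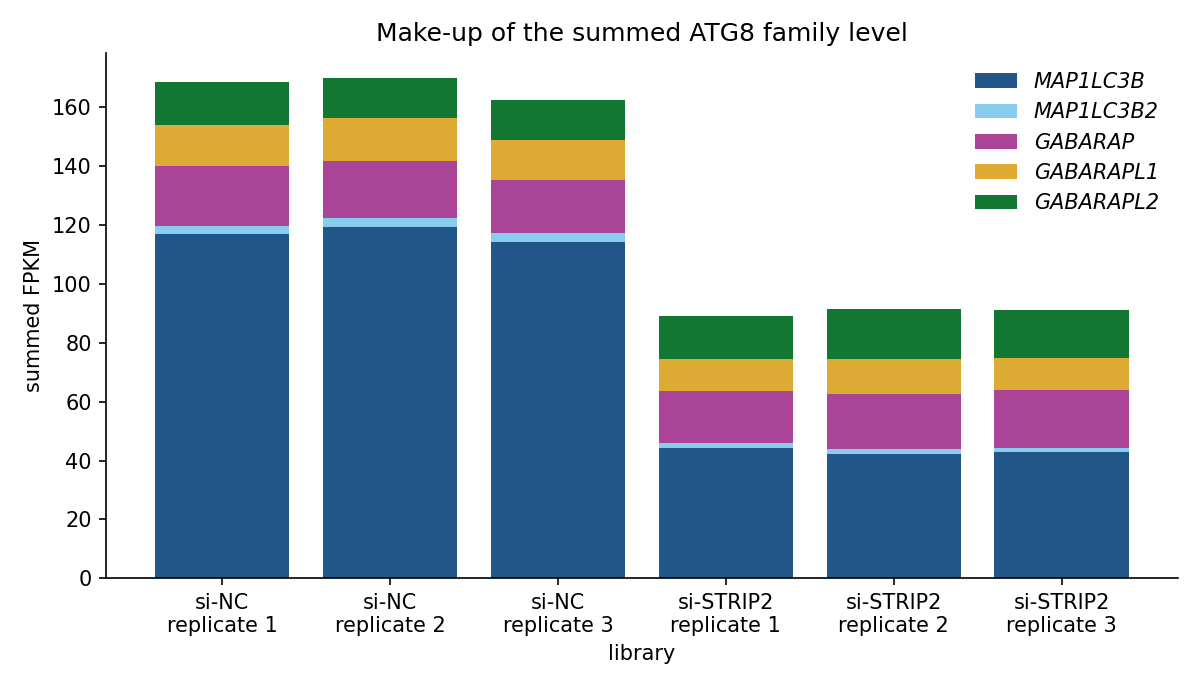
Stacked bars of the FPKM of 5 ATG8 genes in each library, from 0. MAP1LC3A and MAP1LC3C are too low to be drawn. The dark blue part, MAP1LC3B, shrinks from 69.9% to 47.6% of the sum on average, while the GABARAP parts together keep nearly their height.

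The order of levels among the GABARAP genes depends on the length used. By the deposited exonic sizes, GABARAP was the highest of the 3 in si-NC at 19.4 ± 1.27 FPKM, and GABARAPL1 (13.96 ± 0.340) and GABARAPL2 (14.02 ± 0.595) did not differ beyond their spread. The deposited size is 3010 bases for GABARAPL2, 4053 for GABARAPL1 and 5037 for MAP1LC3B. A single GENCODE transcript of each of these genes has 1002, 1957 and 2688 bases. Dividing the counts by these transcript lengths gave 42.1 ± 1.79 for GABARAPL2, 28.9 ± 0.70 for GABARAPL1 and 23.1 ± 1.52 for GABARAP per kilobase of transcript in si-NC, scaled for depth as FPKM is (SD, n = 3). MAP1LC3B was the highest on either scale, at 219 ± 4.64 on the latter.

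Promoters are shown for 3 related members whose differences varied in size and direction. RefSeq promoters on GRCh38.p14, from 250 bases before to 50 after a start site, were found for 7 members, with 3 start sites for SQSTM1. Printed 5′ to 3′ on the gene's strand are those of MAP1LC3B (chr16:87392086-87392385, plus strand), the member with the lowest log2 fold change, of GABARAPL1 (chr12:10212627-10212926, plus strand), which was lower, and of GABARAPL2 (chr16:75566129-75566428, plus strand), which was higher. In the deposited annotation, MAP1LC3B begins at 87383953 and GABARAPL1 at 10212458, each before its window. These windows may therefore lie within transcribed sequence. Capitals mark matches to the searched motifs other than the GC box.
MAP1LC3B: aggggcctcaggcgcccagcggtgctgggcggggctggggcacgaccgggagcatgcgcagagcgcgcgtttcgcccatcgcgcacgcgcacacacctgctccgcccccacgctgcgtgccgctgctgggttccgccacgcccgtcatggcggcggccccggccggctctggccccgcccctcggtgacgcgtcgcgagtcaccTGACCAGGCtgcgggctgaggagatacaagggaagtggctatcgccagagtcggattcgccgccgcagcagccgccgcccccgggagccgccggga
GABARAPL1: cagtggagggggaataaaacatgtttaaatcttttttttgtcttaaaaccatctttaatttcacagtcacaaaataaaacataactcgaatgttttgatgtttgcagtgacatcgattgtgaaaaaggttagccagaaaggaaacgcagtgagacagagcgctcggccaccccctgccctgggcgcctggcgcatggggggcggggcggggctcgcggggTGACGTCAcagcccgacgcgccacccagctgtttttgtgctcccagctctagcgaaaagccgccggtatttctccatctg
GABARAPL2: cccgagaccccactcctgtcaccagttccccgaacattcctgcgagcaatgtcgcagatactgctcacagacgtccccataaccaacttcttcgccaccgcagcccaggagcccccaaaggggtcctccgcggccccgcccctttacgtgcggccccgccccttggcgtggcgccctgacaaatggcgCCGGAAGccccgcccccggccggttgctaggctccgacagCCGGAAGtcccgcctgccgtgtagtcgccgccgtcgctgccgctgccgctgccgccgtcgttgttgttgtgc
The motifs were searched on both strands. The capitals in MAP1LC3B are a match to the core of the antioxidant response element, TGACNNNGC, which NRF2 recognises, at bases -46 to -38 from the start. That core occurs in 13.3% of the 35116 RefSeq promoters and in no other member promoter. In GABARAPL1 they are a cyclic AMP response element, TGACGTCA, at -30 to -23, which occurs in 1.85% of promoters. In GABARAPL2 they are 2 matches to the ETS motif CCGGAAG, which occurs in 10.3% of promoters and also once at the first SQSTM1 start. The E-box CACGTG (7.26% of promoters), which TFEB and its relatives recognise, had no match in any member promoter. The AP-1 motif TGANTCA (7.71%), the forkhead motif TGTTTAC (3.42%) and the heat shock motif TTCNNGAA (7.74%) had none either. The GC box GGGCGG (45.0% of promoters) matched 4 times in MAP1LC3B, 3 times in GABARAPL2 and 2 times in GABARAPL1 and in GABARAP, and matches overlapped each other only in GABARAPL1 and at the second SQSTM1 start, where neighbouring GC boxes share a base. The ATF4 motif TGATGNAA (3.62%) and the CCAAT box (34.6%) each matched only in MAP1LC3C. The promoter of MAP1LC3B was 75.7% G and C, against a median of 58.7% over all promoters. This was not particular to MAP1LC3B, as the SQSTM1 starts were at 77.0%, 75.0% and 73.0% and GABARAPL2 was at 69.0%. The other member promoters were at 51.7% to 59.3%. A match is a description of letters, and no match says only that these letters are not in this window.

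The genes whose profile over the 6 libraries was most like that of MAP1LC3B were FGF19, AREG, SLC30A1, TGFA and SLFN5. Likeness was the root mean square difference of log2 CPM, centred on each gene's own mean, among genes with a mean of at least 5 FPKM. FGF19, a secreted growth factor of bile acid signalling, went from 40.9 ± 1.08 to 14.9 ± 0.674 FPKM. AREG went from 686.7 ± 27.6 to 236.2 ± 3.44 FPKM, SLC30A1, a zinc exporter, from 20.1 ± 0.982 to 7.15 ± 0.20 FPKM, and TGFA, another EGF receptor ligand, from 31.4 ± 0.881 to 11.7 ± 0.666 FPKM (SD, n = 3). With 6 libraries in 2 groups, this likeness is largely a similar fold between the groups. The genes nearest to SQSTM1 included WARS1, ERBB3, HMGN4 and TYW3, with log2 fold changes from -0.10 to -0.087.

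The enzymes that process and attach ATG8 proteins changed in both directions. Of the 11 genes of this list, all tested, 3 rose and 5 fell at an edgeR adjusted p under 0.05, where 27.8% of all tested genes rose and 27.0% fell. The median log2 fold change was -0.032, against 0.014 over all tested genes. This list and those that follow were also chosen with results of these data known, so their counts are descriptions and show nothing particular to a list, and the p-values of single genes, adjusted over all tested genes, are no independent evidence. ATG12, the ubiquitin-like partner of ATG5, was the most abundant and fell most, from 42.53, 43.68 and 42.05 FPKM in si-NC to 29.98, 28.67 and 29.80 FPKM in si-STRIP2 (edgeR log2 fold change -0.54, SE 0.039, adjusted p = 1.10e-13). ATG5 (-0.29), ATG3 (-0.28), the conjugating enzyme, and ATG4C (-0.33), a processing protease, fell by less, with edgeR adjusted p-values of 1.99e-06, 2.68e-06 and 5.67e-05. The groups of these 4 genes did not overlap, which follows largely from naming the genes with the smallest adjusted p. In the same list, the groups of ATG4A, ATG4D, ATG7, ATG10 and ATG16L1 overlapped, and those of ATG4B and ATG16L2 did not. The share of all tested genes whose groups did not overlap was not computed, so nothing is read from this.

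Of the 19 cargo receptors other than SQSTM1, 7 rose and 9 fell (54.8% of all tested genes were called in either direction), with a median log2 fold change of -0.23. CCPG1, a receptor for endoplasmic reticulum turnover, fell from 4.12, 4.05 and 4.01 FPKM to 1.38, 1.52 and 1.42 FPKM (edgeR log2 fold change -1.50, SE 0.073, adjusted p = 4.14e-18), a fold of the same order as that of MAP1LC3B. BCL2L13, a mitophagy receptor, had a log2 fold change of -0.61, TAX1BP1, a receptor of ubiquitin-tagged cargo, of -0.47, and RTN3, a receptor of endoplasmic reticulum tubules, of -0.45. Their edgeR adjusted p-values were 4.63e-13, 2.42e-11 and 1.36e-11.

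The initiation and fusion factors that bind ATG8 proteins comprised 14 genes, of which 5 rose and 6 fell, beside 54.8% called over all tested genes, with a median of -0.13. RB1CC1, the gene of the scaffold FIP200 of the ULK1 kinase complex, fell from 21.69, 23.42 and 22.34 FPKM to 12.96, 13.17 and 13.18 FPKM (edgeR log2 fold change -0.78, SE 0.041, adjusted p = 3.40e-17). ATG13, of the same complex, fell by 0.28 on the log2 scale, and FYCO1, which links autophagosomes to kinesin, by 0.39. EPG5, a tether of autophagosome and lysosome, rose by 0.67 from 0.727 ± 0.076 to 1.15 ± 0.104 FPKM (edgeR adjusted p = 1.68e-08). This rise was 0.32 on the log2(FPKM + 1) scale, where a pseudocount of 1 is close to its level.

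Among 10 signalling partners of SQSTM1, 1 rose and 5 fell, with a median of -0.14. That share of called genes is near the 54.8% over all tested genes. The riser was KEAP1, which went from 10.87, 9.85 and 10.46 FPKM to 14.13, 13.85 and 14.53 FPKM (edgeR log2 fold change 0.44, SE 0.055, adjusted p = 2.75e-08). NFE2L2, the gene of NRF2, moved the other way, from 18.38, 19.52 and 17.65 FPKM to 12.77, 12.99 and 12.54 FPKM (edgeR log2 fold change -0.54, SE 0.041, adjusted p = 2.99e-13). CYLD, a deubiquitinase that binds p62, fell by 0.58 on the log2 scale, and PRKCI, the atypical protein kinase C that binds the amino-terminal domain of p62, by 0.20.

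Of 12 transcription factors known to act on autophagy genes, 3 rose and 6 fell, against 54.8% of all tested genes called in either direction, with a median of -0.059. DDIT3, the gene of the stress factor CHOP, fell from 57.38, 58.08 and 59.93 FPKM to 36.10, 35.01 and 30.83 FPKM (edgeR log2 fold change -0.78, SE 0.051, adjusted p = 8.14e-15). MITF fell by 1.11 and TFE3 by 0.46 (log2), and the edgeR adjusted p-values were 2.50e-09 and 1.84e-07. The 3 that rose, named to show the other direction, were ATF4, E2F1 and FOXK1, with log2 fold changes of 0.25, 0.26 and 0.14. ATF4 went from 193.3 ± 1.56 to 231.1 ± 6.01 FPKM. MITF was low, at 1.37 ± 0.138 and 0.64 ± 0.056 FPKM, and its log2 fold change was -0.53 on the log2(FPKM + 1) scale.

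LC3 was first found as a light chain of the microtubule-associated proteins MAP1A and MAP1B. All 3 heavy chain genes were called, where 54.8% of all tested genes were. MAP1B fell from 5.75, 7.15 and 6.19 FPKM to 3.24, 3.24 and 3.22 FPKM (edgeR log2 fold change -0.97, SE 0.057, adjusted p = 4.41e-16). MAP1S rose from 2.08, 2.45 and 2.35 FPKM to 3.66, 3.36 and 3.60 FPKM (edgeR log2 fold change 0.63, SE 0.089, adjusted p = 2.49e-07), and MAP1A, named to complete the list and at most 0.647 FPKM on average, rose by 0.91.

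**Figure D4:**
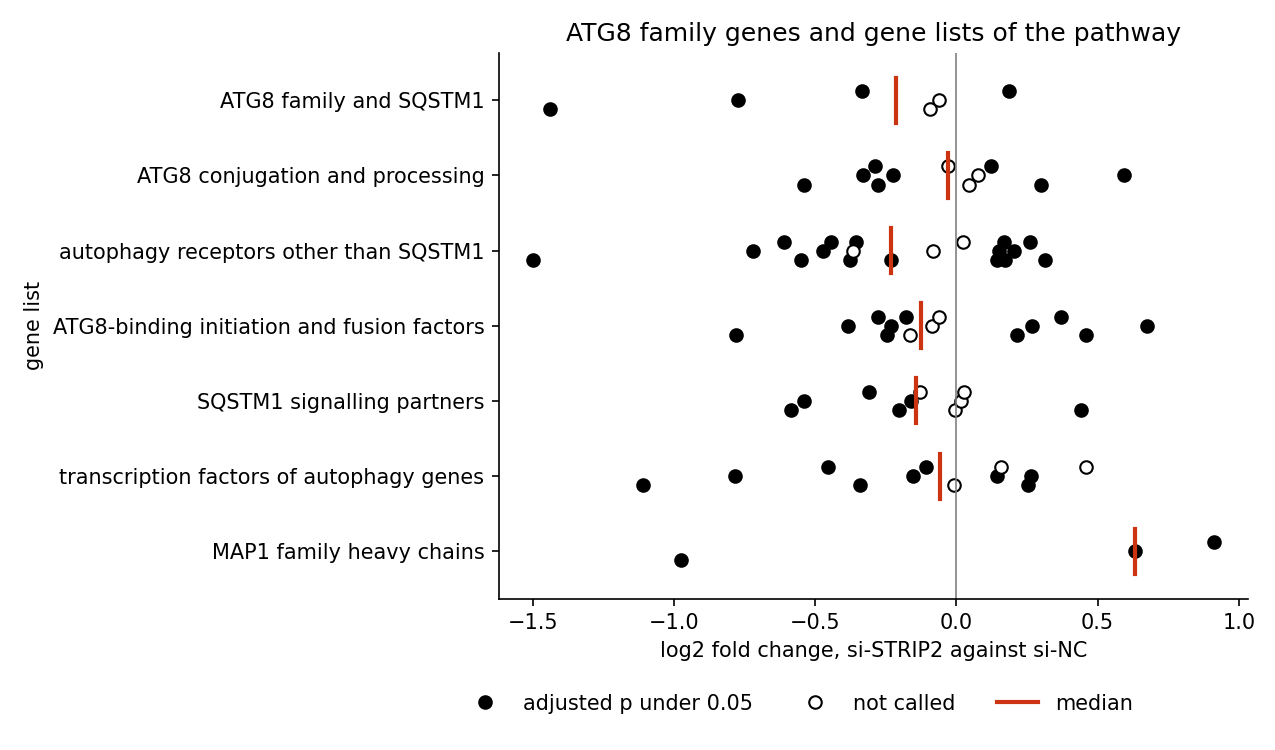
Log2 fold change of each tested gene of the ATG8 family with SQSTM1 and of the 6 pathway lists, with filled points for genes called by edgeR, open points for genes not called, and red lines for medians. Genes of every list lie on both sides of 0, and CCPG1 among the receptors lies close to MAP1LC3B, near -1.5.

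The deposited annotation assigns the LC3 and GABARAP genes to different pathway terms. All 4 LC3 genes stand under the KEGG term Ferroptosis, while the 3 GABARAP genes and SQSTM1 stand under the term Autophagy - animal, which holds no LC3 gene in that table. The Ferroptosis term holds 117 genes of the table, and 46 of them were tested. Of these 46, MAP1LC3B had the lowest log2 fold change, ahead of SLC7A11, the cystine importer gene, at -1.26. Since MAP1LC3B was put forward with this contrast known, its rank is a description and shows nothing about the term. Counts of genes in that term include MAP1LC3B and its near-identical copy MAP1LC3B2 as separate genes.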

How the data were processed

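RNA-seq was performed on 6 HCT116 libraries (poly(A)-selected, directional kit, per the labels' protocols). The submitters' processing notes name cutadapt 1.9.1, HISAT2 2.2.1, HTSeq 0.6.1 and GRCh38.p13. The annotation release, the strand setting and the treatment of reads that match several genes are not given in the sources used here. The authors deposited raw counts per gene, which were whole numbers, and FPKM values, which differed from a recomputation from counts, exonic size and column total by at most 0.005. Of the table's rows, 0 named no gene.

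Counts were tested in R 4.3.3 with edgeR 4.0.16 on all genes kept by filterByExpr (minimum count 10), with TMM scaling, the quasi-likelihood F test with group as the only term, 2-sided, and Benjamini-Hochberg adjustment over 15687 genes. Standard errors (SE) were derived from each log2 fold change and its F statistic. DESeq2 1.42.0 and limma 3.58.1 served as alternatives, limma on log2(FPKM + 1) and log2(FPKM + 0.1) of genes with at least 1 FPKM in 3 libraries. On simulated data for this comparison (15687 genes), edgeR recovered 76.1% of 1.5-fold, 85.5% of 2-fold and 95.3% of 3-fold changes. Of the calls in the simulation, 3.39% were false. It changed 200 genes and gave all genes 1 common dispersion (spread between libraries). In the data 54.8% of tested genes were called, so these shares may not carry over. No pair of libraries within a group agreed within counting noise (chi-square per degree of freedom of at least 2.05). The si-NC libraries differed more from each other, at 4.48 to 15.1, than the si-STRIP2 libraries, at 2.05 to 2.17.

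The members and gene lists were chosen with earlier results of these data known. Named genes are the members, STRIP2, up to 4 called genes with the smallest adjusted p in each list among those averaging 1 FPKM or more in a group, the 5 genes nearest in profile to MAP1LC3B and to SQSTM1, copies and overlapping genes. Some genes that this rule names are not reported here. Promoters are from RefSeq (GRCh38.p14) and coding sequences from GENCODE 29 (GRCh38).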

Additional observations from a re-analysis of the deposited data

How the results depend on the processing

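Each log2 fold change was recomputed under up to 15 alternatives, 1 of them, quantile scaling, chosen after seeing the data. MAP1LC3B ranged from -1.46 to -1.42, GABARAPL1 from -0.38 to -0.30, GABARAPL2 from 0.15 to 0.25, GABARAP from -0.11 to -0.0069 and SQSTM1 from -0.12 to -0.058, with no change of sign. MAP1LC3B2 was -0.54 by limma on log2(FPKM + 1) and -0.55 under quantile scaling, as the pseudocount shrinks low genes. The share of MAP1LC3B in the ATG8 sum by counts came to 80.5% for si-NC and 62.05% for si-STRIP2, 68.1% and 45.1% with 1 transcript length per gene (chosen after seeing the data), and 71.3% in si-NC with copies added. With the replicate number as a block, MAP1LC3B was at -1.44 and 4 members were called, beside 8293 of all 15687 tested genes. Libraries with the same number deviated together with correlations from -0.086 to -0.013 across genes, and those with different numbers from -0.0405 to 0.112. These values show no pairing by number, but so few libraries cannot exclude one, and the labels state none. Leaving out each library in turn gave 4 to 5 called members. Among all tested genes, the fewest calls were 7690 of 16043, without si-NC replicate 1. The most were 8494 of 16031, without si-NC replicate 3. The counts of called genes in each list stayed within 1.5 times the value given. Over 448 refits of single named genes outside the family, 0 changed sign, 15 lost a call and 3 gained one. All of these lost and gained calls were of genes near SQSTM1 in profile. Counts limit MAP1LC3A, MAP1LC3C and MAP1LC3B2.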
